A study of Mus musculus with 38 samples.

Results

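H2-Bl is a row of the mouse major histocompatibility complex (MHC) class I family. It was counted in wild-type intestinal organoids at 0 to 4 tags per library and in Ppard-floxed organoids at 7 to 22. In Ppara-null organoids with intact Ppard it was counted at 0 to 13. It is described here with 7 other genes of class I antigen presentation: the heavy chains H2-K1, H2-D1 and H2-T23, the light chain B2m, the peptide transporter subunits Tap1 and Tap2, and the loading factor Tapbp. The 8 members were picked by symbol and matched to Ensembl identifiers in the count table, 8 of its 54352 genes. H2-Bl was chosen because earlier results of these data had shown its difference between genotypes, so its levels between genotypes are given as a description, with no test. The other 7 were chosen by function.

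An MHC class I molecule consists of a heavy chain and β2-microglobulin, and it presents peptides from inside the cell to CD8 T cells and natural killer cells. The transporter TAP carries peptides into the endoplasmic reticulum, where tapasin helps to load them. The classical heavy chains H2-K1 and H2-D1 present varied peptides, whereas H2-T23 (Qa-1) is a non-classical heavy chain that presents a narrow set of peptides and is read by receptors of natural killer cells. Intestinal epithelial cells express class I constitutively, and interferons raise it.

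The organoids were 3-dimensional epithelial cultures grown from intestinal crypts of C57BL6 mice for 8 days in matrigel, with 1 µM GW501516 (GW, a synthetic compound that activates the nuclear receptor PPARδ) or with 0.1% DMSO as the vehicle. The 4 genotypes were wild type (WT), Ppard-fl/fl (D), Ppara-null (A) and Ppard-fl/fl with Ppara-null (DA). The series' design text calls them knockouts, while the labels write the Ppard allele as floxed and name no recombinase. The 8 groups held 38 libraries: 5 each for WT vehicle, WT GW, D vehicle, A vehicle, A GW and DA GW, and 4 each for D GW and DA vehicle. The title of 1 D GW sample goes with that group while its genotype label names both genes. It was kept by its title, and which of the 4 columns it is cannot be told. The labels do not say whether replicates came from separate mice, so p-values measure the spread between these libraries, which may be technical.

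RNA was profiled by 3′ digital gene expression, which counts tags near the 3′ end of polyadenylated transcripts. Total counts per library ran from 353347 to 577557 (median 483740). Column names carry library numbers, of which 24 libraries had numbers from 1 to 36 and 14 from 37 to 60, with both ranges in each group. Xist was counted above Y-linked genes in 18 of the 24 earlier-numbered libraries and in 0 of the 14 later-numbered ones. Epithelial markers summed to 454 to 1102 counts per library and intestinal stem cell markers to 56 to 157. The 4 enterocyte markers summed to 3278 to 27020 counts and differed between groups, with median levels of 9.3e+03 CPM in DA vehicle, 8.96e+03 in DA GW, 1.15e+04 in A vehicle, 2.51e+04 in A GW, 1.84e+04 in WT vehicle, 3.11e+04 in WT GW, 1.94e+04 in D vehicle and 3.24e+04 in D GW. The 4 enterocyte markers were Alpi, Fabp1, Sis and Apoa1. Fabp1 itself passed at an adjusted p of 0.05 in DA against A with GW, where 0.127% of tested genes passed. It also passed in A against WT averaged over treatments, where 0.634% passed. Whether the marker sum follows the regulation of its own genes or the share of enterocytes was not tested. Of 20 immune cell markers 15 were at 0 everywhere, Ptprc among them, and the list summed to 0 to 5 counts per library. Ppard had 0 to 4 counts per library in every group, too few to check its deletion, and 3′ tags may lie outside the deleted part. Ppara had 0 to 3 counts in the A and DA libraries and 1 to 13 in the WT and D libraries.

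The members' sequences bear on every value below, since a tag is assigned to one of several similar genes. Coordinates are from the mouse build mm10 (GRCm38) in GENCODE. H2-Bl (ENSMUSG00000073406) lies on the minus strand of chromosome 17 from 36080115 to 36084223 and is annotated as a polymorphic pseudogene, a class for genes that are intact in some individuals and broken in others. Over the aligned coding bases it matched H2-D1 at 89.3%, H2-K1 at 86.6% and H2-T23 at 80.5%. Coding bases 807 to 896 of H2-Bl are shown because the 4 heavy chains are most alike there, so that a short tag from this stretch can fit more than 1 of them. They are printed from the GENCODE transcripts, 5′ to 3′, with bases that differ from H2-Bl in capitals.
H2-Bl: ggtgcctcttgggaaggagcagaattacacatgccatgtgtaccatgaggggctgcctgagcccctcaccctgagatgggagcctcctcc
H2-K1: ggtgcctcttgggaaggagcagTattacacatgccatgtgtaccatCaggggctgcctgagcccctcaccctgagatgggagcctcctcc
H2-D1: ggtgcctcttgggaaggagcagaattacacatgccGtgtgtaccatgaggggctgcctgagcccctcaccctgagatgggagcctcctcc
H2-T23: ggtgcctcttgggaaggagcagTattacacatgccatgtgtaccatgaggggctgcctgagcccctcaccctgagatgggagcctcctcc

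In this stretch of 90 bases H2-K1 differed from H2-Bl at 2 bases, and H2-D1 and H2-T23 at 1 each. Of the 470 stretches of 31 bases in the last 500 bases of the H2-Bl transcript, 201 (42.8%) also occurred in transcripts of another gene. They spread over 33 other genes, led by H2-Q1, H2-T23 (118 stretches) and Gm10499. The share was 66.6% for H2-T23, 24.9% for H2-D1, 8.09% for H2-K1, and 0% for B2m, Tap1, Tap2 and Tapbp. No such stretch from the last 500 bases of H2-K1 or H2-D1 occurred in H2-Bl. For H2-T23 the sharing spread over 633 other genes, led by H2-T-ps, Rab33b and Hook2, with 50 stretches in H2-Bl. For H2-D1 it spread over 672 other genes, led by Kcnk4, Gm13075 and Cflar. The sharing of these genes was thus not confined to class I heavy chains. The deposited counts are rounded estimates, and the second deposited table keeps the estimates before rounding. For H2-Bl none of the 31 nonzero estimates lay within 0.01 of a whole number, against 88.6% over all rows of the table. For H2-T23 the share was 2.63%, for H2-D1 28.9%, for H2-K1 52.6%, for B2m 76.3%, and for Tap1, Tap2 and Tapbp 100%. H2-Bl and H2-T23 counts therefore hold tags divided between genes that share sequence, and both are uncertain for that reason. H2-D1 and H2-K1 hold some too, with estimates up to 0.483 and 0.474 from a whole number. For B2m the largest such distance was 0.0156. H2-T23 is also overlapped on the other strand by A930015D03Rik, which had 97 counts in all. Tap1 is overlapped on the other strand by Psmb9 (80 counts), and Tapbp on the same strand by Zbtb22 (36 counts). No source used here states strand-specific counting.

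H2-Bl was near 0 in WT, high in D and DA, and split within A. In WT vehicle the libraries had 1, 4, 1, 0 and 1 counts of H2-Bl, and in WT GW 0, 0, 0, 1 and 2. In D vehicle they had 17, 16, 19, 20 and 18, and in D GW 19, 18, 12 and 11. In DA vehicle they had 22, 9, 12 and 18, and in DA GW 10, 8, 12, 14 and 7. Every D and DA library lay above every WT library, also in CPM (counts scaled to a library total of 1000000): the 18 ran from 13.7 to 45.3 CPM and the 10 WT libraries from 0 to 7.56 CPM. No other of the 4729 genes that passed the filter on low counts was higher in all D and DA libraries with no overlap (1 gene, 0.0211%). H2-Bl was chosen for this pattern, so nothing is read from that share.

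Pooled over the libraries of a group, the CPM of H2-Bl was 12.8 times as high in D as in WT with vehicle (95% exact interval 5.98 to 32.8) and 26.1 times as high with GW (8.5 to 130). DA against WT gave 10.5 (4.8 to 27.2) with vehicle and 16.5 (5.33 to 82.5) with GW. The intervals cover counting error only, and the WT sums behind them were 7 counts with vehicle and 3 with GW. On the fitted log2 scale the D minus WT difference was 3.59 ± 0.65 (SE) with vehicle and 4.49 ± 0.81 with GW. Without WT vehicle replicate 2, the library with 4 counts, the first became 4.40, and without WT GW replicate 5, the library with 2, the second became 5.41.

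In A the 10 libraries fell into separate sets by library number. Those numbered 1 to 36 had 13, 12 and 10 counts of H2-Bl with vehicle and 9, 7 and 7 with GW. Those numbered 37 to 60 had 0 and 0 with vehicle and 0 and 2 with GW. The 6 earlier-numbered A libraries lay between 13.6 and 27.8 CPM, overlapping the DA libraries (13.7 to 44.7 CPM), and the 4 later-numbered ones between 0 and 4.37 CPM, in the range of WT. The ratio of pooled CPM between the sets was 21.6 (95% exact interval 5.73 to 183, counting error only), from 58 and 2 counts. Within library numbers 1 to 36, A had 10.1 times the pooled WT level (4.35 to 28.5) and DA had 1.2 times the A level (0.836 to 1.72). Within 37 to 60, A had 0.466 times the WT level (0.0421 to 3.25) and DA had 26.2 times the A level (6.77 to 224).

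WT, D and DA showed no such split of H2-Bl. D over WT was 16.9 (7.49 to 47.1) within numbers 1 to 36 and 16.8 (6.17 to 64.2) within 37 to 60, and DA over WT was 12 (5.27 to 33.9) and 12.2 (4.39 to 46.9). Of the 4729 tested genes, 3.43% were higher in all earlier-numbered A libraries than in all later-numbered ones, and 7.53% were lower. In the A libraries the earlier-numbered set had Xist above Y-linked counts in 5 of 6 and the later-numbered set in 0 of 4. The 1 earlier-numbered A library with Y-linked counts above Xist (63 against 1), A GW replicate 1, had 9 counts of H2-Bl. The part of library number in the A against WT and DA against A differences was not tested beyond these values.

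**Figure D1:**
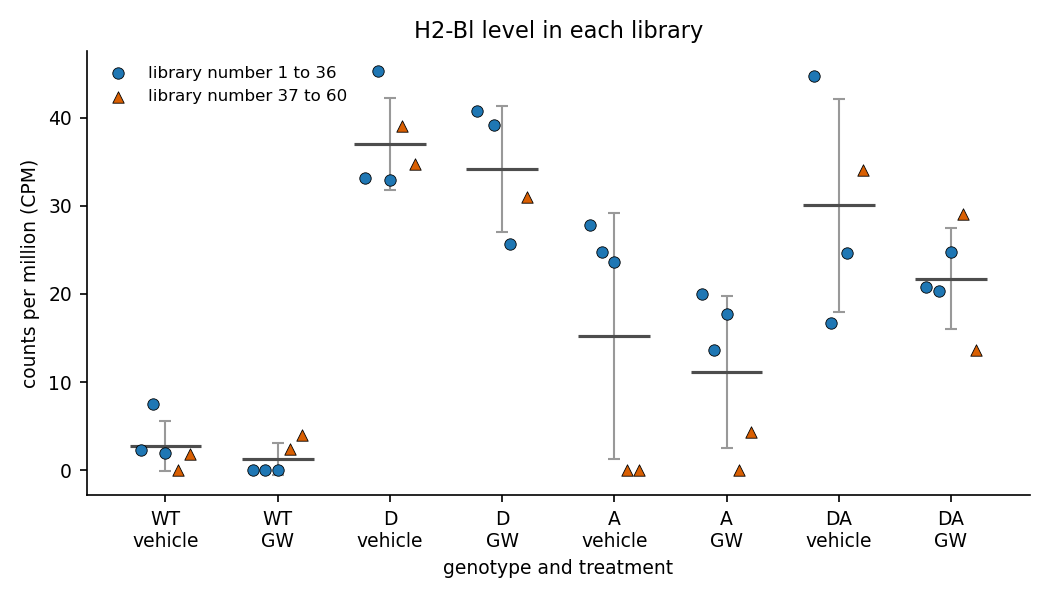
CPM of H2-Bl (vertical axis) in each of the 38 libraries by genotype and treatment, with the group mean (bar) and SD (whisker) and library numbers 1 to 36 (circles) or 37 to 60 (triangles). WT libraries lie at 0 to 7.56 CPM, D and DA libraries at 13.7 to 45.3, and the A libraries split by library number.

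Ordered by the group mean, H2-Bl stood at 37 ± 5.2 CPM (SD, n = 5) in D vehicle, 34.1 ± 7.09 (n = 4) in D GW, 30 ± 12.1 (n = 4) in DA vehicle and 21.7 ± 5.73 (n = 5) in DA GW. It stood at 15.2 ± 14 CPM (n = 5) in A vehicle, 11.1 ± 8.63 (n = 5) in A GW, 2.74 ± 2.84 (n = 5) in WT vehicle and 1.28 ± 1.83 (n = 5) in WT GW. Each group's range overlapped that of its neighbour in this order.

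The agonist comparisons were not used to choose H2-Bl, and none passed. With GW against vehicle, the log2 difference of H2-Bl was -1.01 ± 1.23 (SE) for WT, -0.11 ± 0.46 for D, -0.38 ± 0.60 for A and -0.45 ± 0.49 for DA, with the mean of the 4 at -0.49 ± 0.39 (edgeR quasi-likelihood, adjusted p = 0.904). In this mean 0.634% of the tested genes passed at an adjusted p of 0.05. Over all libraries the group means were lower with GW in all 4 genotypes, and the groups' ranges overlapped in each. Within library numbers 37 to 60 the direction was reversed in WT, at 0 and 1.9 CPM with vehicle and 2.47 and 3.95 with GW. It was also reversed there in A, at 0 and 0 CPM against 0 and 4.37, and kept in D and DA. Both reversals rest on 0 to 2 counts per library.

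H2-T23, 47.3 kb from H2-Bl on the same strand (chromosome 17, 36029773 to 36032855), ranged more widely than the classical heavy chains, from 38 to 186 counts per library. It had 79, 164, 113, 111 and 111 counts in WT vehicle and 123, 54, 96, 139 and 107 in WT GW. In D vehicle it had 64, 64, 80, 97 and 117, and in D GW 78, 44, 89 and 71. In DA vehicle it had 51, 48, 78 and 109, and in DA GW 59, 44, 78, 109 and 103. The ranges overlapped, at 89 to 226 CPM in D and DA and 121 to 343 CPM in WT.

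Averaged over the 4 comparisons of floxed with intact Ppard (D against WT and DA against A, each with vehicle and with GW), H2-T23 was -0.43 ± 0.16 on the log2 scale. The adjusted p was 0.84, with 0.127% of the tested genes passing, so the difference did not pass. The values of the 4 comparisons ran from -0.45 to -0.41 over all libraries, and they were not alike within library numbers. D minus WT, averaged over treatments, was -0.51 ± 0.20 within numbers 1 to 36 and -0.31 ± 0.27 within 37 to 60 (adjusted p = 1 for each). DA minus A of H2-T23 was 0.02 ± 0.21 within 1 to 36 (adjusted p = 1) and -0.61 ± 0.26 within 37 to 60 (0.658). The average over Ppard status was then -0.25 ± 0.15 (adjusted p = 1) and -0.46 ± 0.19 (0.691). With no filter on low counts the adjusted p was 0.00203 at the same log2 value.

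In the A libraries H2-T23 split by library number in the opposite direction to H2-Bl. The earlier-numbered libraries had 73, 38 and 62 counts of H2-T23 with vehicle and 49, 69 and 40 with GW. The later-numbered had 178 and 126 with vehicle and 186 and 174 with GW. The sets did not overlap, at 78.5 to 156 CPM against 230 to 380 CPM, as for 7.53% of the tested genes in this direction.

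In a model with groups divided by library number, added after the data were seen, later-numbered A libraries were higher than earlier-numbered ones in H2-T23 by 1.30 ± 0.22 (log2, SE; edgeR adjusted p = 1.09e-04), in a comparison where 7.8% of tested genes passed. The same difference was 0.05 ± 0.21 for WT (adjusted p = 0.943, 4.46% of genes passing), 0.25 ± 0.26 for D (0.705, 4.29% passing) and 0.67 ± 0.25 for DA (0.203, 1.4% passing). Within library numbers 1 to 36, H2-T23 was lower in A than in WT by -0.89 ± 0.20 (adjusted p = 0.012, 1.42% of genes passing) and in DA than in WT by -0.87 ± 0.20 (0.0211, 0.973% passing). Within 37 to 60, A minus WT was 0.36 ± 0.23 (adjusted p = 1), where 0.0634% passed. The difference between these A minus WT values, 1.25 ± 0.30 (adjusted p = 0.0723, 0.317% passing), did not pass. Averaged over Ppara status (A against WT and DA against D), H2-T23 was -0.62 ± 0.15 within numbers 1 to 36 (adjusted p = 0.0097, 2.71% passing) and 0.20 ± 0.19 within 37 to 60 (0.906). Over both sets of library numbers, A minus WT was -0.23 ± 0.22 (adjusted p = 1, 0.634% passing) and the Ppara average -0.22 ± 0.16 (0.73).

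**Figure D2:**
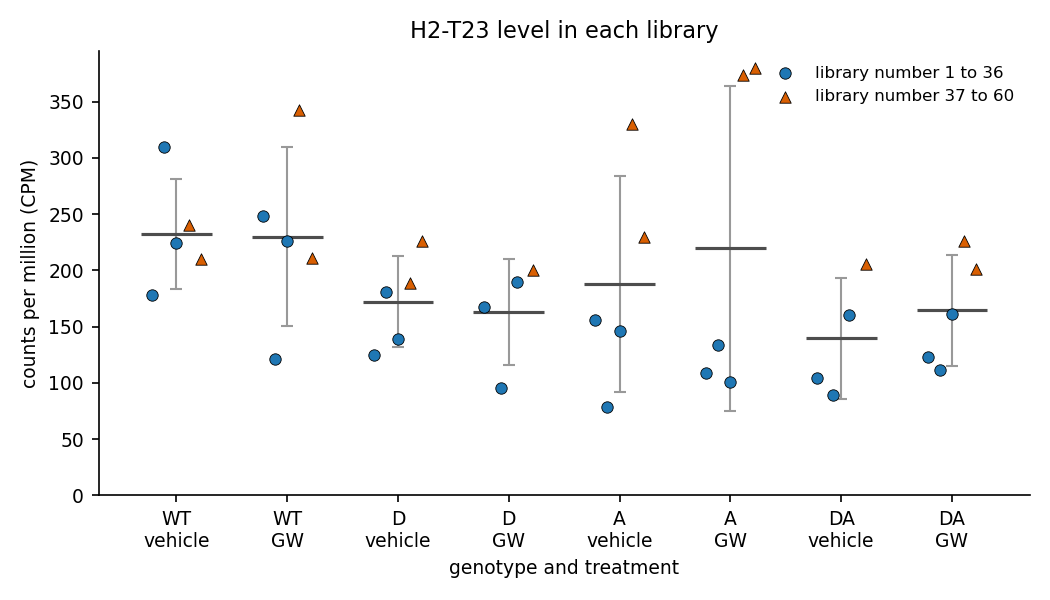
CPM of H2-T23 (vertical axis) in each library by genotype and treatment, with the group mean (bar) and SD (whisker) and library numbers 1 to 36 (circles) or 37 to 60 (triangles). The later-numbered A libraries lie at 230 to 380 CPM and the earlier-numbered ones at 78.5 to 156.

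H2-K1, H2-D1 and B2m, the classical heavy chains and their shared light chain, did not pass in any of the 13 comparisons of genotype and agonist. The share of all tested genes that passed was 0.0423% for D against WT with vehicle and 0.0634% with GW, 0% for DA against A with vehicle and 0.127% with GW, and 0.148% for A against WT with vehicle and 0.233% with GW. For GW against vehicle it was 0.423% in WT, 0% in D, 0.296% in A and 0% in DA. For the averages it was 0.127% over Ppard status, 2.41% over Ppara status and 0.634% with GW. B2m (chromosome 2, 122147686 to 122153083, plus strand) was the most counted member, at 386 ± 49.1 CPM (SD, n = 5) in WT vehicle, 399 ± 48.9 (n = 5) in D vehicle, 418 ± 54.3 (n = 5) in A vehicle and 392 ± 55.4 (n = 4) in DA vehicle. With GW it stood at 356 ± 64.1, 355 ± 33.6, 378 ± 72.2 and 385 ± 43.9 CPM in the same order of genotypes. The ranges of all 8 groups overlapped, and its log2 differences in the 13 comparisons lay between -0.19 and 0.08 (lowest adjusted p 0.852).

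H2-K1 (chromosome 17, 33996017 to 34000347, minus strand) had 41, 57, 46, 51 and 45 counts in WT vehicle and 43, 40, 48, 60 and 56 in D vehicle. It had 60, 60, 44, 53 and 64 in A vehicle and 63, 75, 44 and 48 in DA vehicle. No group stood apart, and the log2 differences of H2-K1 lay between -0.13 and 0.22 (SE 0.085 to 0.18, lowest adjusted p 0.915).

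H2-D1 (chromosome 17, 35262730 to 35267499, plus strand) had 54, 59, 53, 54 and 65 counts in WT vehicle and 64, 32, 53, 68 and 72 in D vehicle. It had 54, 50, 42, 64 and 69 in A vehicle and 64, 68, 51 and 64 in DA vehicle. Its log2 differences lay between -0.15 and 0.10 (SE 0.076 to 0.16, lowest adjusted p 0.952). The averages over Ppard status were 0.08 ± 0.08 for H2-K1, 0.01 ± 0.08 for H2-D1 and 0.00 ± 0.08 for B2m, beside a median of 0.00 over all tested genes. Of these 3 genes none reached an unadjusted p of 0.05 in any of the 13 comparisons.

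**Figure D3:**
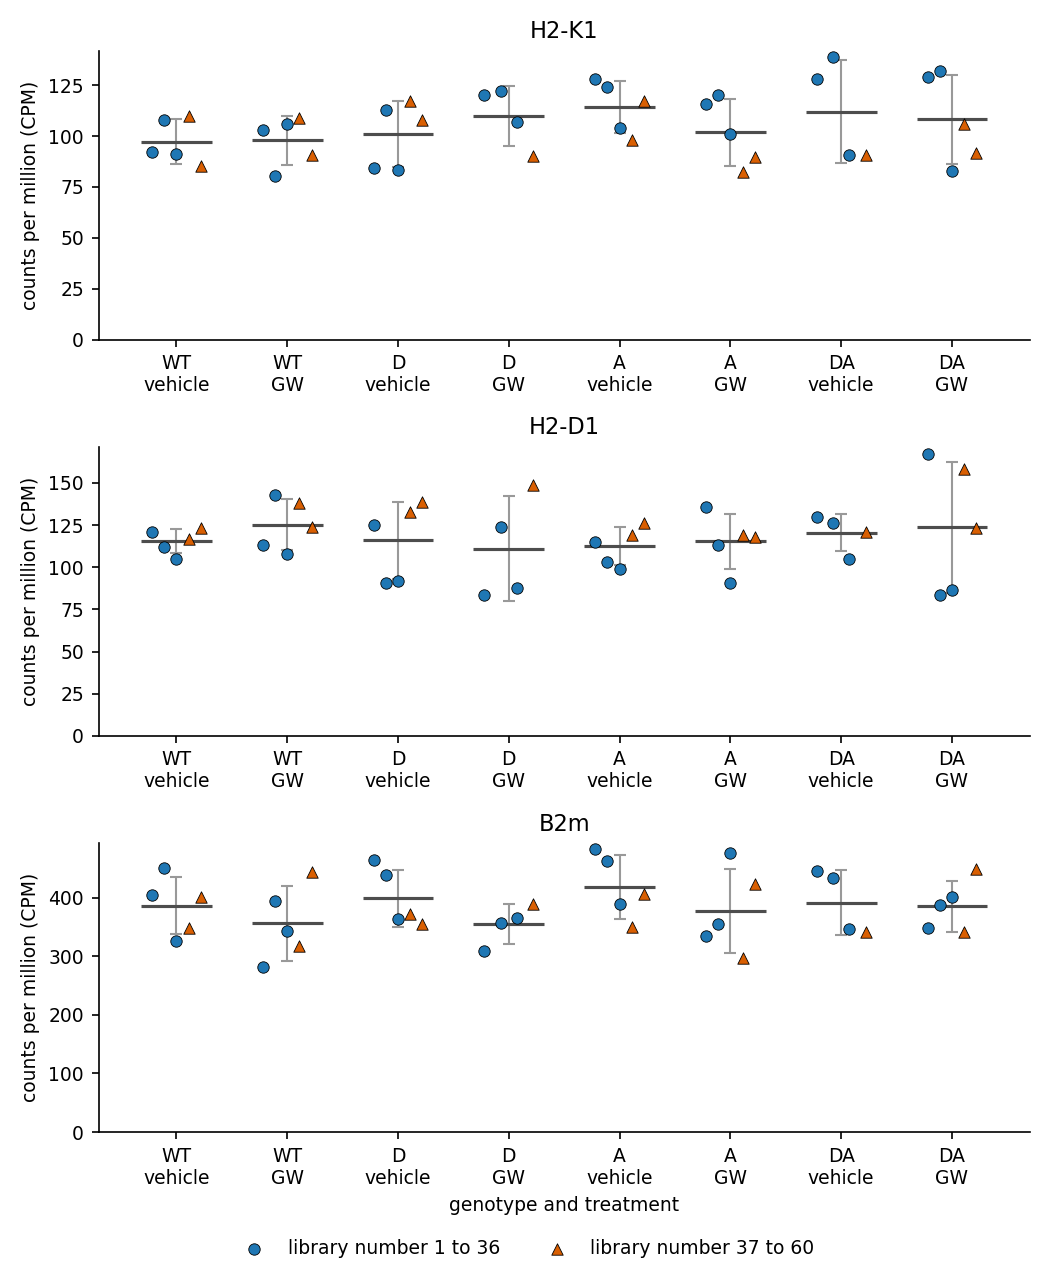
CPM (vertical axes, from 0) of H2-K1, H2-D1 and B2m in each library by genotype and treatment, with the group mean (bar) and SD (whisker) and library numbers 1 to 36 (circles) or 37 to 60 (triangles). The groups of each gene overlap, B2m between 281 and 483 CPM.

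Since tags can be divided among similar heavy chains, the 30 class I heavy chain rows of the table were also summed to 1 row before the fit. The sum does not take in tags shared with genes outside class I. The sum differed by -0.12 ± 0.07 (log2, SE) over Ppard status (edgeR adjusted p = 1), by -0.12 ± 0.07 over Ppara status (0.582) and by 0.04 ± 0.07 with GW (0.956). Its 4 separate Ppard comparisons ran from -0.16 to -0.10. H2-Bl was a small part of the sum, with 332 counts in all beside 3475 for H2-T23, 2137 for H2-D1 and 1902 for H2-K1.

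The peptide-loading genes were barely counted. Tap1 had 15 counts over all 38 libraries, Tap2 7 and Tapbp 131, and these 3 members did not pass the filter on low counts, which left 5 of 8 members tested. Tap1, a transporter subunit, had at most 4 counts in a library, and its pooled level ran from 0.405 CPM in WT vehicle (95% exact Poisson interval 0.0103 to 2.26) to 2.16 CPM in A GW (0.701 to 5.04). Tap2, its partner, was at 0 in all libraries of WT vehicle, D vehicle, D GW, A GW and DA vehicle. For a group at 0 the floor of 3 counts over the group lay at 1.22 CPM in WT vehicle and 1.72 CPM in D GW, and the upper end of the two-sided 95% exact Poisson interval at 1.49 and 2.11 CPM. No difference of Tap1 or Tap2 was detectable at this depth.

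Tapbp encodes tapasin, which links TAP to the heavy chain. It had 1, 1, 5, 2 and 2 counts in WT vehicle, 1, 1, 1, 2 and 0 in D vehicle, 2, 4, 5, 2 and 5 in A vehicle and 2, 5, 5 and 7 in DA vehicle. With GW it had 2, 4, 3, 3 and 8 for WT, 3, 6, 3 and 1 for D, 3, 3, 3, 5 and 2 for A, and 5, 8, 7, 4 and 5 for DA. D vehicle held the lowest counts of Tapbp and DA GW the highest, and neighbouring groups overlapped. In the fit without the filter its mean difference with GW was 0.73 ± 0.29 (log2, SE; adjusted p = 0.788) and over Ppara status 0.74 ± 0.29 (0.428), and neither passed.

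On chromosome 17, Ppard lies from 28232700 to 28301474 on the plus strand, and H2-Bl lies 7.78 Mb beyond it. Tapbp lies 5.61 Mb from Ppard, H2-K1 5.69, Tap1 5.89, Tap2 5.90, H2-D1 6.96 and H2-T23 7.73 Mb. B2m is on another chromosome. In the average over Ppard status 6 of 4729 genes passed (0.127%), a count that holds H2-Bl. H2-Bl was chosen with its value known, so its call is not used: without it 5 of 4728 genes passed (0.106%). Of these 5, 2310061I04Rik and H2-T3 lay 5 to 10 Mb from Ppard, as 2 of 38 tested genes at that distance (5.26%). Elsewhere 0 of 72 passed within 5 Mb, 0 of 115 farther along chromosome 17 and 3 of 4503 (0.0666%) on other chromosomes. No test of this clustering was made.

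Within 5 Mb the count of 0 depended on the method. Ppil1, which encodes a peptidyl-prolyl isomerase and lies 0.95 Mb from Ppard, was at -0.52 ± 0.12 over Ppard status (edgeR adjusted p = 0.0625) and is named here after its values were seen. It stood at 89.2 ± 18.2 CPM (SD, n = 10) in WT, 51.8 ± 13.9 (n = 9) in D, 64.8 ± 28.4 (n = 10) in A and 53 ± 12.1 (n = 9) in DA. Ppil1 passed with no filter on low counts (adjusted p = 0.00467), with a term for library number (-0.50, 0.0238) and with DESeq2 (-0.53, 0.022), and in 10 of the 38 fits that left out 1 library. Within library numbers 1 to 36, D minus WT of Ppil1 was -0.94 ± 0.17 (edgeR adjusted p = 0.00357), in a comparison where 0.148% of tested genes passed, and DA minus A was 0.00 ± 0.19 (adjusted p = 1). Within 37 to 60 these were -0.47 ± 0.22 (adjusted p = 1) and -0.61 ± 0.22 (0.443). The A libraries of Ppil1 lay at 38.5 to 56.3 CPM for the earlier numbers and 60.4 to 125 for the later ones. Of the tested genes 7.53% were split in this direction without overlap.

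**Figure D4:**
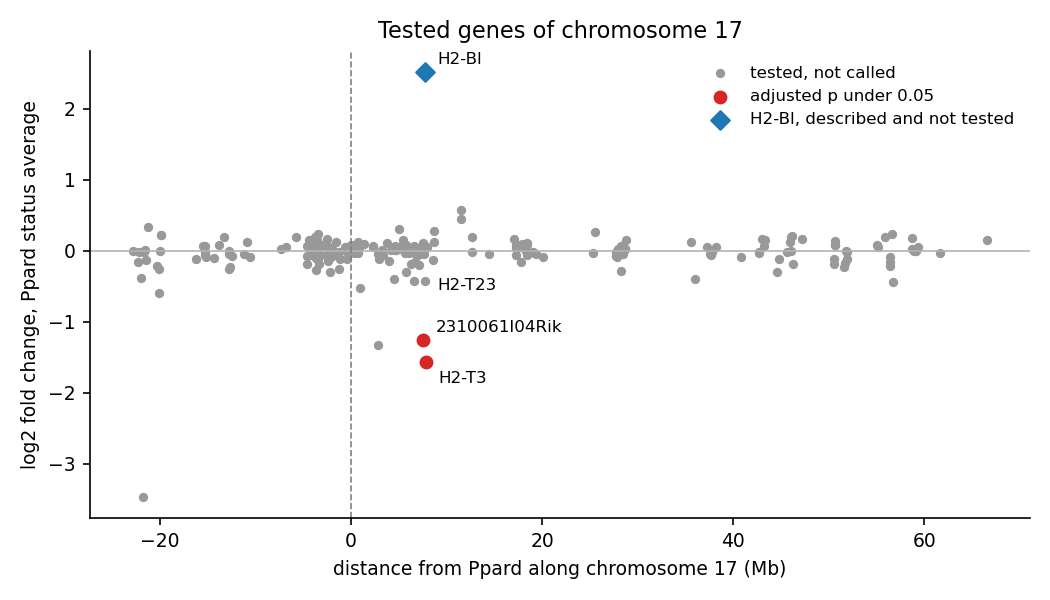
Log2 fold change averaged over Ppard status (vertical axis) for the tested genes of chromosome 17 against their distance from Ppard in Mb (horizontal axis), with genes that passed in red and H2-Bl as a diamond. 2310061I04Rik, H2-T3 and H2-Bl lie 7.59 to 7.88 Mb from Ppard, at -1.26, -1.57 and 2.52.

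H2-T3 encodes the thymus leukaemia antigen, a non-classical class I chain of intestinal epithelium, and lies 101.3 kb from H2-Bl. It had 5, 6, 6, 10 and 9 counts in WT vehicle and 7, 11, 3, 10 and 14 in WT GW, against 2, 0, 5, 7 and 1 in D vehicle and 5, 3, 2 and 3 in D GW. In DA it had 2, 5, 0 and 2 with vehicle and 3, 1, 0, 0 and 3 with GW. D and DA were low, with some overlap with WT. In A it had 6, 1 and 3 counts with vehicle and 4, 5 and 2 with GW in the earlier-numbered libraries. The later-numbered ones had 12 and 16 with vehicle and 7 and 11 with GW. These A sets did not overlap in CPM (2.07 to 12.8 against 14.1 to 29.3), as for 7.53% of the tested genes in this direction. Averaged over Ppard status H2-T3 fell by 1.57 on the log2 scale (SE 0.31, edgeR adjusted p = 0.00638). Without the group D GW, which holds the sample with conflicting labels, the average lost its comparison of D with WT under GW. H2-T3 was then at -1.65 (adjusted p = 0.0767). Within library numbers 1 to 36 its average over Ppard status was -1.08 (adjusted p = 1). Within 37 to 60 it was -2.03 (adjusted p = 0.0489). Enterocyte markers were also lowest by median in the DA groups, and their part in the H2-T3 difference was not tested.

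2310061I04Rik, a protein-coding gene 182.7 kb from H2-Bl, was lower in all 18 D and DA libraries (6.2 to 19.5 CPM) than in all 10 WT libraries (30.3 to 60.7 CPM), as were 2 of 4729 genes (0.0423%). Averaged over Ppard status it fell by 1.26 (SE 0.22, edgeR adjusted p = 0.00343), and within library numbers 1 to 36 it was -0.82 (adjusted p = 0.918). Within 37 to 60 it was -1.52 (adjusted p = 0.00763). D minus WT of 2310061I04Rik was -1.59 ± 0.32 within 1 to 36 (adjusted p = 0.0178) and -1.53 ± 0.43 within 37 to 60 (0.616). DA minus A was -0.05 ± 0.39 within 1 to 36 (adjusted p = 1) and -1.51 ± 0.40 within 37 to 60 (0.101). In A it had 15, 2 and 6 counts with vehicle and 1, 8 and 4 with GW in the earlier-numbered libraries, and 20 and 31 with vehicle and 18 and 20 with GW in the later-numbered ones. These sets did not overlap, in the same direction as H2-T23 and as 7.53% of the tested genes.

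Across the 38 libraries the genes most like H2-Bl by Pearson correlation of log2 CPM were Ppp1r11 on chromosome 17 (0.70), Cept1 (0.67), Mrpl32 (0.54), Gtpbp8 (0.54) and Pdzk1ip1 (0.53). The least like were Gm10524 (-0.82), Gm43305 (-0.79) and 2310061I04Rik (-0.78). The other members stood at -0.53 (H2-T23), -0.11 (H2-D1), 0.32 (B2m) and 0.39 (H2-K1), and H2-T3 at -0.71. The libraries share genotype groups and library numbers, so these values describe the pattern only. Within numbers 1 to 36 they were -0.41 for H2-T23, -0.29 for H2-D1, 0.33 for B2m and 0.37 for H2-K1. Within 37 to 60 they were -0.61 for H2-T23, 0.62 for H2-D1, 0.05 for B2m and 0.12 for H2-K1, so that H2-D1 changed sign between the sets.

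Other genes of the pathway were given by lists that hold no member. Of 32 further genes listed with the class I pathway 14 were tested. Averaged over Ppard status 5 of the 14 were higher and 9 lower, with a median of -0.07 beside 0.00 over all tested genes. H2-T3 alone passed, where 0.127% of tested genes did. Averaged over Ppara status, where 2.41% of tested genes passed, 3 were higher and 11 lower (median -0.20), and Tapbpl, a tapasin-like peptide editor, fell by 0.77 (SE 0.19, edgeR adjusted p = 0.0189). The median enterocyte marker level was lower in A than in WT and in DA than in D with either treatment, and its part in these Ppara differences was not tested. H2-Q2 at -0.41 ± 0.20 (adjusted p = 0.465) and the proteasome activator gene Psme2 at -0.20 ± 0.11 (0.543) did not pass. With GW 8 were higher and 6 lower, and none passed, where 0.634% of tested genes did. The smallest p-values were those of the chaperones Calr, 0.15 ± 0.08 (adjusted p = 0.74), and Pdia3, 0.18 ± 0.11 (0.798).

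Of 40 interferon response genes 9 were tested, and none passed over Ppard status or with GW. Among all tested genes only 0.127% and 0.634% passed in these averages, so little is read from that. Over Ppara status, where 2.41% of tested genes passed, Ly6e, an interferon-inducible surface protein, rose by 0.58 ± 0.13 (log2, SE; edgeR adjusted p = 0.00604). Ly6e was 1 of 9, with 4 higher and 5 lower (median -0.07). Ifitm3, an antiviral membrane protein, was at -0.24 ± 0.10 (adjusted p = 0.319). Of 12 class II genes only the endosomal proteins Ifi30 and Ctss were tested, and neither passed in any of the 3 averages.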

How the data were processed

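The authors deposited a table of counts per Ensembl gene, whole numbers rounded from estimates, and a second table in log2 units. The values of the deposited log2 table are log2 of CPM plus 1, since undoing the log gives sums of 1000000 per library. Salmon 1.1.0, edgeR 3.26.8, R 3.6.2 and mm10 are named per the submitters' processing notes. The annotation release and any use of molecular identifiers are not given in the sources used here. Columns were joined to groups by treatment and genotype in their names, and replicates were numbered in column order. Of 57 columns 38 were used, and 19 whose names match no sample were not. 5 used columns carry a suffix 2 that no label explains.

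The counts were fitted with edgeR 4.0.16 (R 4.3.3; TMM scaling, filterByExpr by group, 1 quasi-likelihood model of 8 groups), which left 4729 genes. P-values were adjusted by Benjamini-Hochberg over all of them, with a threshold of 0.05. An average is the mean of its comparisons in that model. Alternatives were DESeq2 1.42.0, no filter, a term for library numbers 1 to 36 or 37 to 60, leaving out columns, groups or single libraries, fitting only the groups compared, and summing class I rows. A model with groups divided by library number was added after the data were seen. On simulated counts for the average over Ppard status (4729 genes), the fit recovered 95% of 100 genes changed by a log2 size of 1 and 100% of 100 changed by 2, with 10 false calls. The simulated counts held no difference by library number and no change smaller than 1, so neither is covered by these shares.

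Members and lists were chosen with earlier results of these data known. The named genes were the members, the targeted genes, the 5 most and 3 least like H2-Bl, neighbours within 5 Mb that passed over Ppard status, and up to 4 genes of each list by smallest p. Pairs of libraries within a group differed by more than sampling noise in all 72 cases (chi-square per degree of freedom 1.51 to 7.10). Intervals are exact, at 95%, and cover counting error only. Gene names and coordinates came from GENCODE, which matched 54109 of 54352 identifiers. Whole estimates were counted within 0.01.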

Additional observations from a re-analysis of the deposited data

Results flagged for a closer look

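In 8 of 64 combinations of member and group the highest library stood far from the rest by Dixon's criterion. A group with a single nonzero library meets this criterion whatever its count. The nominal rate of about 1 in 20 therefore does not apply, and no excess is read from the 8. All 8 were the transporter subunits Tap1 and Tap2, where nearly all other libraries of the group were at 0. For Tap1 the library that stood apart was at 2.25 CPM (1 count) in WT vehicle, 2.14 (1 count) in D GW, 1.83 (1 count) in A vehicle, 8.04 (4 counts) in A GW, 3.71 (2 counts) in DA vehicle and 2.53 (1 count) in DA GW. For Tap2 it was at 1.97 CPM (1 count) in WT GW and 6.2 CPM (3 counts) in A vehicle.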

How the results depend on the processing

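Counts of H2-Bl, Tap1, Tap2 and Tapbp are low enough that depth limits them. The division of tags among genes that share sequence limits H2-Bl and H2-T23 most, and H2-D1 and H2-K1 in part. The number of the 7 members other than H2-Bl that passed was 0 in all 13 comparisons, and it stayed 0 in each alternative run (0 to 0 with 1 library left out) except 2, both from H2-T23. It was 1 over Ppard status with no filter (-0.43, adjusted p = 0.00203) and 1 over Ppara status within library numbers 1 to 36 (-0.62, adjusted p = 0.0097). The cause was not tested. The genes passing over Ppard status numbered 6, against 9 with DESeq2, 38 with no filter, 1 within numbers 1 to 36 and 13 within 37 to 60. Over Ppara status 114 passed (11 to 208 over the alternatives that leave out no single library) and with GW 30 (7 to 62). The single comparisons of D with WT passed 2 with vehicle (1 to 18) and 3 with GW (0 to 19), those of DA with A 0 (0 to 22) and 6 (1 to 24), and those of A with WT 7 (0 to 54) and 11 (0 to 58). GW against vehicle passed 20 in WT (3 to 45), 0 in D (0 to 12), 14 in A (3 to 28) and 0 in DA (0 to 9). Leaving out single libraries ended no call of H2-T3 (-1.74 to -1.47) or 2310061I04Rik (-1.33 to -1.16) over Ppard status, and Ppil1 (-0.56 to -0.46) passed in 10 of the 38 such fits.

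Values near 0 changed sign. Within numbers 37 to 60 these were -0.07 for H2-K1 and -0.05 for B2m over Ppara status, and 0.07 for B2m with GW. Within 1 to 36 they were 0.03 for H2-K1 and -0.06 for H2-T23 with GW, and -0.07 for H2-D1 over Ppard status. H2-T23 changed sign by more in 2 results. Over Ppara status it was 0.20 within 37 to 60 and -0.62 within 1 to 36. In A against WT it was 0.36 within 37 to 60 and -0.89 within 1 to 36. Without the columns with suffix 2, B2m over Ppara status was -0.01. Leaving out 1 library gave -0.05 to 0.01 for H2-K1 with GW, -0.02 to 0.04 for H2-D1 over Ppard status and -0.01 to 0.05 for B2m over Ppara status. H2-Bl over Ppard status was 2.52, and 2.42 to 2.75 with 1 library left out. Without D GW it was 1.86, but that average lacks the D against WT comparison with GW (4.49) and is not the same quantity. Fitted folds of H2-Bl within library numbers were not used, since some groups were at 0 in every library. No paired analysis was possible because the columns carry no replicate numbers of the labels.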
